A study of Mus musculus with 6 samples.

Results

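The endothelin and angiotensin systems were followed through 9 genes chosen by function: the precursor of endothelin-1 (Edn1), its converting enzyme (Ece1), the endothelin receptors (Ednra, Ednrb), angiotensinogen (Agt), angiotensin-converting enzyme (Ace), the angiotensin receptors (Agtr1a, Agtr2) and aminopeptidase A (Enpep). All 9 were found by gene symbol among the 56941 gene IDs of the count table, and all 9 were among the 17072 genes with enough reads to be tested. The RNA came from mouse lung cells collected with magnetic beads against CD31, the adhesion molecule encoded by Pecam1, on postnatal day 7. The room air group (21% oxygen) and the hyperoxia group (75% oxygen since postnatal day 0) had 3 libraries each. No strain, allele, sex or pooling of pups is named in the labels, which list no treatment other than oxygen, and they do not say that the libraries came from separate pups. P-values therefore measure only the spread between these libraries, and how much of it is technical is not known. Hyperoxia 2 had Y-linked reads and hyperoxia 1 and 3 almost none, so the hyperoxia libraries did not all come from the same pups.

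Endothelins are short peptides that endothelial cells cut from a long precursor. The endothelin A receptor sits mainly on smooth muscle cells and pericytes, where it drives contraction, and the endothelin B receptor on endothelial cells triggers release of nitric oxide and clears the peptide from the blood. In the angiotensin system, renin cuts angiotensinogen to angiotensin I, and angiotensin-converting enzyme on the endothelial surface makes angiotensin II from it. The lung capillary bed is a classic site of that conversion. Aminopeptidase A then breaks angiotensin II down, the type 1 receptor carries most of its constrictor effects, and the type 2 receptor largely opposes them.

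Each library held 39379793 to 42343192 counts. Levels are given in CPM, counts relative to a common library size with TMM scaling, with SD over n = 3. Markers of the labelled cell type were all present: each of 13 pan-endothelial genes was read, with Pecam1 at 2783 CPM ± 450 in room air against 2341 CPM ± 369 in hyperoxia, and 0 of the 13 were called higher and 1 lower. Markers of other cells were present, and not all of their lists stayed level. The alveolar type 2, smooth muscle, airway, mast cell, and lymphocyte and neutrophil lists had 0 genes called. In the macrophage list 3 of 9 genes were higher and 1 was lower. Alveolar type 1 epithelial genes summed to 2010 to 2835 CPM in room air against 4836 to 6429 CPM in hyperoxia, with 8 of 9 higher. Genes listed as an early response to cell handling summed to 7119 to 10897 CPM against 11642 to 12378 CPM, with 6 of 12 higher. Dusp1 (log2 fold change -0.18) and Nr4a1 (-0.13) of that list did not rise. Whether handling or oxygen raised the others was not tested. The part of the alveolar type 1 list and of this early response list in the members' values was not tested. Room air 3 and hyperoxia 2 stood apart within their groups, with the lowest pan-endothelial sums (14743 and 12697 CPM, against 16243 to 20161 CPM in the other 4) and the highest sums of the smooth muscle (334 and 485 CPM, against 203 to 295 CPM elsewhere), airway, fibroblast, alveolar type 1, alveolar type 2, macrophage and mast cell lists within their groups. Y-linked genes gave 129 to 162 CPM in the 3 room air libraries and in hyperoxia 2, but 0.0472 and 0 CPM in hyperoxia 1 and 3, so sex and oxygen were partly tied. A fit adjusted for Y-linked reads therefore sets hyperoxia 2 alone against the room air libraries. In any fit without hyperoxia 2, sex and oxygen are fully tied. In RNA pooled from many cells, fewer cells of a type and less RNA per cell cannot be told apart.

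No member passed the test. Of the 9 genes, 0 had an adjusted p below 0.05 by edgeR's quasi-likelihood test, against 11.2% of all genes tested (6.77% higher and 4.41% lower), and 3 had an unadjusted p below 0.05 (Ace, Agt and Enpep), against 25.2% of all genes. DESeq2's test called 2 of the 9, Ace and Agt, where it called 16.2% of all genes, and limma-voom called Ace alone, where it called 10.9%. The same 3 genes, Ace, Agt and Enpep, were the ones whose hyperoxia libraries all lay below all room air libraries. Non-overlapping groups were found for 30.9% of all genes, so 3 of 9 is close to the background. The median log2 fold change was -0.11 over the members and -0.01 over all genes tested.

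Levels of different members were compared per kb of exon, since longer transcripts collect more reads. In room air Ace was the highest at 587.6 CPM per kb, followed by Ece1 at 223.3, Ednrb at 81.2 and Edn1 at 37.3 CPM per kb. Enpep (11.2), Agt (5.39), Ednra (1.86), Agtr1a (0.469) and Agtr2 (0.112 CPM per kb) followed. The order in hyperoxia was the same, from Ace at 354.1 and Ece1 at 283.2 CPM per kb down to Agtr1a at 0.514 and Agtr2 at 0.104 CPM per kb. Neighbours in the order did not overlap between libraries, with 1 exception: in hyperoxia, Ace (271 to 412 CPM per kb) and Ece1 (241 to 309.6 CPM per kb) did. Both converting enzymes thus stood far above every ligand and receptor in this preparation.

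**Figure D1:**
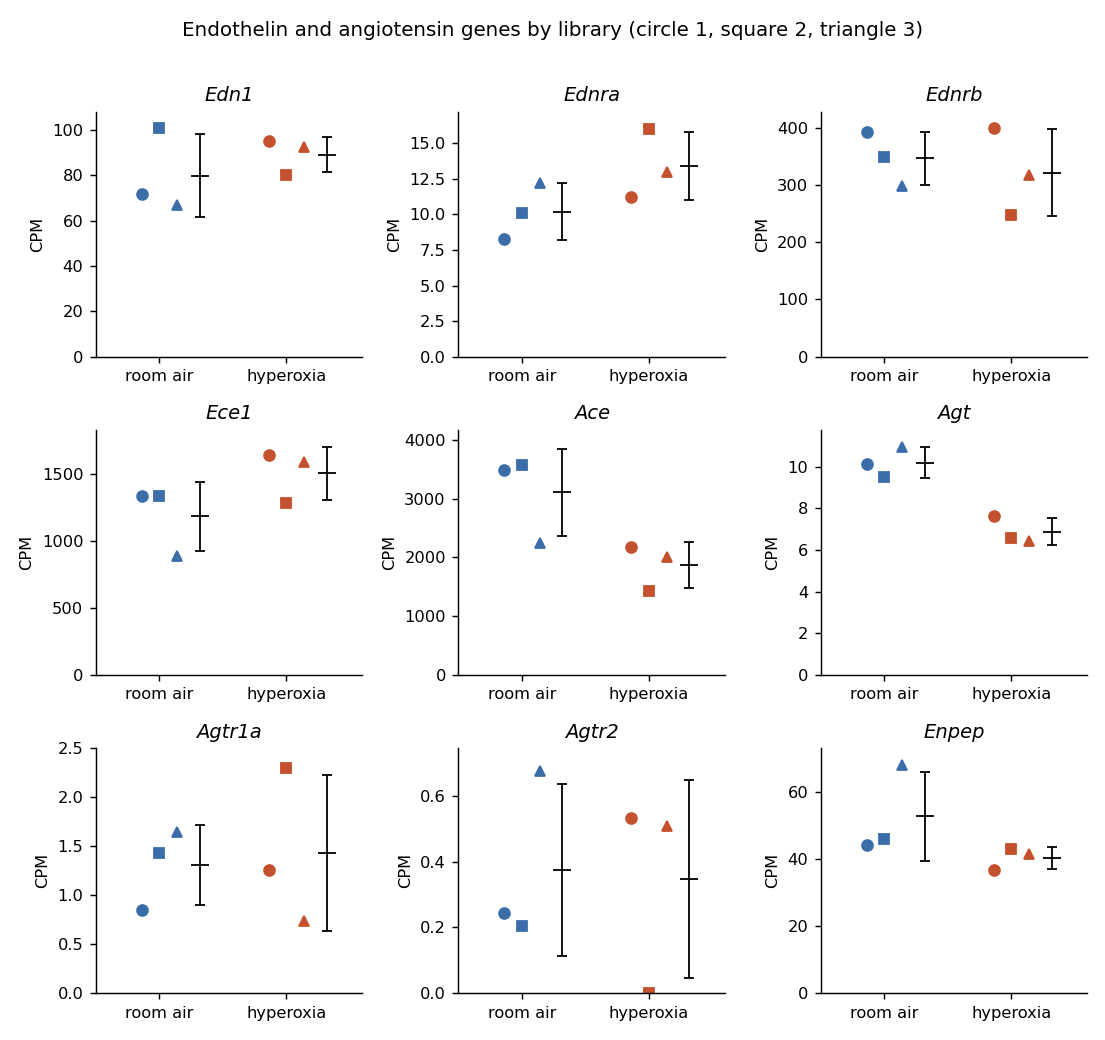
Level of each member in CPM, on linear axes from 0 that differ between panels, in room air and hyperoxia. Circle, square and triangle are libraries 1, 2 and 3 of a group, and the black dash with its bar is the mean ± SD. Ace, Agt and Enpep are the panels in which every hyperoxia library lies below every room air library; hyperoxia 2 has 0 counts of Agtr2.

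Edn1 (ENSMUSG00000021367, chromosome 13), whose product endothelial cells cut and secrete as endothelin-1, was read at 71.6, 100.6 and 66.8 CPM in room air 1 to 3 and at 94.99, 80.1 and 92.2 CPM in hyperoxia 1 to 3. The groups overlapped, with the highest library in room air and the lowest library also in room air. The means were 79.7 CPM ± 18.3 and 89.1 CPM ± 7.91 (log2 fold change 0.16, SE 0.15, 95% limits -0.18 to 0.50, edgeR adjusted p = 0.563). Edn1 did not pass, and its limits span 0.

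Ece1 (ENSMUSG00000057530, chromosome 4) encodes endothelin-converting enzyme 1, a membrane metalloprotease that releases the active peptide. Its levels were 1332, 1332 and 886 CPM in room air against 1641, 1279 and 1584 CPM in hyperoxia. Room air 3 was low, hyperoxia 2 lay below the other room air libraries, and the groups overlapped. The means were 1183 CPM ± 257 against 1501 CPM ± 195, with a log2 fold change of 0.34 (SE 0.18, 95% limits -0.06 to 0.75, edgeR adjusted p = 0.283). Scaling to the pan-endothelial genes moved the value to 0.61 with an adjusted p of 0.0131, and Ece1 passed under no other alternative. It was 0.17 without room air 3 (adjusted p = 0.565). In the fit adjusted for Y-linked reads, which sets hyperoxia 2 alone against room air, it was 0.11. The same 2 libraries that held the lowest pan-endothelial sums held the lowest Ece1 in their groups, and the part of that in the result was not tested.

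Ednra (ENSMUSG00000031616, chromosome 8), the endothelin A receptor, was low in these CD31-selected cells: 8.25, 10.1 and 12.2 CPM in room air against 11.2, 16.0 and 13.0 CPM in hyperoxia. Hyperoxia 1 lay below room air 3, so the groups overlapped. The means were 10.2 CPM ± 1.98 and 13.4 CPM ± 2.41 (log2 fold change 0.39, SE 0.20, 95% limits -0.05 to 0.84, edgeR adjusted p = 0.26). Ednrb (ENSMUSG00000022122, chromosome 14), the endothelin B receptor and a marker of the capillary cells called aerocytes, stood at 392, 349 and 299 CPM in room air against 399, 248 and 318 CPM in hyperoxia. Both the highest and the lowest Ednrb library were hyperoxia libraries. The means of Ednrb were 346 CPM ± 46.6 and 322 CPM ± 75.4, a log2 fold change of -0.11 (SE 0.17, 95% limits -0.49 to 0.28, edgeR adjusted p = 0.753). It was 0.05 without hyperoxia 2 and -0.48 in the fit adjusted for Y-linked reads, which sets hyperoxia 2 alone against room air. Per kb of exon Ednra amounted to 1.64, 2.26 and 3.19% of Ednrb in room air and to 2.19, 5.01 and 3.19% in hyperoxia. The log2 difference of 0.52 had p = 0.4 by the exact two-sided permutation test, for which 3 against 3 libraries cannot go below 0.1.

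Agt (ENSMUSG00000031980, chromosome 8) encodes angiotensinogen, which the liver supplies to the blood for the most part. It was read at 10.1, 9.49 and 10.96 CPM in room air against 7.63, 6.60 and 6.42 CPM in hyperoxia, from 253 to 454 counts a library. Every hyperoxia library was below every room air library, and the libraries of a group lay close together. The mean was 10.2 CPM ± 0.735 against 6.88 CPM ± 0.654, a log2 fold change of -0.57 (SE 0.18, 95% limits -0.96 to -0.17). The edgeR adjusted p was 0.0718, which misses the threshold, and DESeq2's test gave 0.0225; over all alternatives the adjusted p ran from 0.0225 to 0.561. The 200 bases before the RefSeq start of Agt (GRCm38.p6, chr8:124569707-124569906, minus strand) are shown because Agt codes for the peptide that both Ace and the receptors depend on. The capitals mark a TATA box, TATAAA on the printed strand, whose first base lies 30 bases before the start.
Agt: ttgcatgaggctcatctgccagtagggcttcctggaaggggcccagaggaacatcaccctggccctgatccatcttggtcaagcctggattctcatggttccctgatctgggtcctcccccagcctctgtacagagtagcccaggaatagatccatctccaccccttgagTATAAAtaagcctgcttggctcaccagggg

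Ace (ENSMUSG00000020681, chromosome 11), the enzyme that makes angiotensin II, was the most abundant member, with 57926 to 144210 counts a library. Its levels were 3489, 3577 and 2254 CPM in room air against 2179.8, 1432 and 2005 CPM in hyperoxia. The lowest room air library, room air 3, was still above the highest hyperoxia library, though by little, and hyperoxia 2 was the lowest of all. The means were 3107 CPM ± 740 and 1872 CPM ± 391, a log2 fold change of -0.73 (SE 0.22, 95% limits -1.21 to -0.25), or 1.66-fold lower. The unadjusted p was 0.00674 and the edgeR adjusted p was 0.0566, just above 0.05. Ace did not pass, and leaving out 1 library changed that. Without room air 3 the log2 fold change was -0.92 with an adjusted p of 0.00804, whereas leaving out any other single library gave -0.57 to -0.85 with adjusted p from 0.0731 to 0.188. Without both room air 3 and hyperoxia 2, the 2 libraries with the lowest pan-endothelial sums, it was -0.77 with an adjusted p of 0.00168. The libraries left split by Y-linked reads exactly as by oxygen, so sex and oxygen cannot be told apart there. The log2 fold change of Ace ran from -1.12 to -0.47 over 17 alternatives. The -1.12 came from the fit with the Y-linked term, which sets hyperoxia 2 alone against room air. Counting that fit, Ace was called in 10 of the 17 alternatives. Of all genes these fits called 5.27% with scaling to the pan-endothelial genes, 14.4% with a 1 CPM filter, 9.99% with no filter, 15.4% with Y-linked status as a term, 8.17% with the replicate number as a block, 9.93% without room air 3 and hyperoxia 2, and 11.1 to 11.3% with the other scalings. Without room air 3 the share was 10.5%, and without any other single library it was 5.97 to 7.81%. Part of its exonic sequence, 5.58%, overlaps the predicted gene Gm11651 on the other strand.

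**Figure D2:**
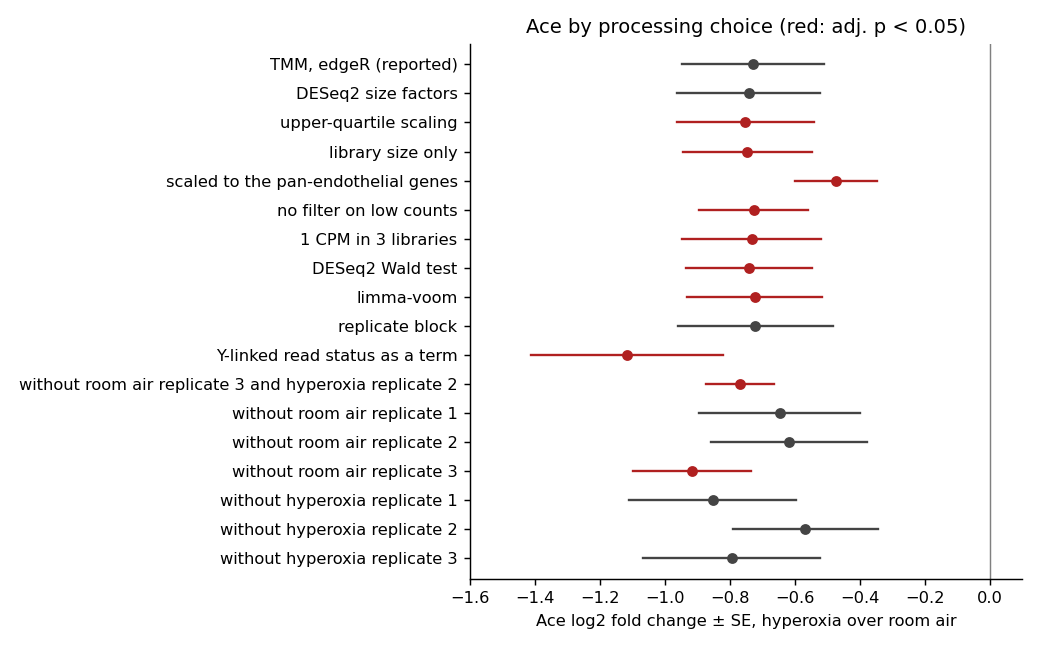
Ace log2 fold change, hyperoxia over room air, with ± SE lines under the edgeR fit reported here and each of 17 alternatives; red marks an adjusted p below 0.05. Every point is below 0, from -1.12 to -0.47, and 10 of the 17 alternatives are red.

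RefSeq lists 2 starts for Ace, 7241 bases apart, and the 200 bases before each are shown because gene counts cannot say which start the Ace reads came from. The first window (GRCm38.p6, chr11:105967748-105967947, plus strand) holds, in capitals, 4 GC boxes, GGGCGG, of which 2 overlap, and 1 TATA box on the opposite strand, printed as TTTATA. The second window (chr11:105974989-105975188, plus strand) holds neither, and its capitals mark 1 CCAAT box on the opposite strand, printed as ATTGG.
Ace first start: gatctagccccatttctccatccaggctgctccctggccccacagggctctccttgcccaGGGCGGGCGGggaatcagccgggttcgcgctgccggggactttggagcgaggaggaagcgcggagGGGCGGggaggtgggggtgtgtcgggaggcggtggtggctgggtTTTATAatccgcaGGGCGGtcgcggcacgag
Ace second start: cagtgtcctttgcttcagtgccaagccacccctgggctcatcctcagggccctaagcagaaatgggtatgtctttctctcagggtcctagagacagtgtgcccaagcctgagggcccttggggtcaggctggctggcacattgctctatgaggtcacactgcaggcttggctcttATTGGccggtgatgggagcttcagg
Both strands of the same window of 32843 RefSeq promoters were searched for these motifs, for the GATA motif AGATAA, for the hypoxia response core ACGTG and for the AP-1 motif TGANTCA, with overlapping matches each counted. At least 1 TATA box was found in 9.96% of them, a GC box in 31.1%, a CCAAT box in 29.4%, the GATA motif in 7.8%, the hypoxia core in 4583 of the windows and the AP-1 motif in 5.48%. The windows of Edn1 and Ednra held none of the 6 motifs. An Ece1 window held the hypoxia core on both strands, with first bases 90 and 89 bases before the start. Of the 9 members 8 had a promoter entry, with 4 starts for Ece1, and Agtr1a had none. A match is a description of letters and not evidence that a factor bound there.

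Enpep (ENSMUSG00000028024, chromosome 3), aminopeptidase A, is known in lung pericytes. Its levels were 44.3, 46.0 and 68.1 CPM in room air against 36.8, 43.0 and 41.5 CPM in hyperoxia. Room air 3 was far above the rest, while the gap between the groups was only that between 43.0 and 44.3 CPM. The means were 52.8 CPM ± 13.3 against 40.4 CPM ± 3.24 (log2 fold change -0.39, SE 0.16, 95% limits -0.74 to -0.03, edgeR adjusted p = 0.168). Its unadjusted p of 0.0377 did not survive adjustment, and only the fit without a filter on low counts called it, at an adjusted p of 0.0479. Without room air 3 the log2 fold change was -0.16 (adjusted p = 0.502).

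Both angiotensin receptors were read at few counts. Agtr1a (ENSMUSG00000049115, chromosome 13), the type 1a receptor, had 35, 56 and 68 counts in room air and 52, 93 and 29 counts in hyperoxia. The hyperoxia libraries held both the highest and the lowest value, so the groups overlapped. Its log2 fold change was 0.13 with 95% limits of -0.96 to 1.23 (SE 0.50, edgeR adjusted p = 0.902). Reads from its close paralog Agtr1b could be assigned to either gene, but Agtr1b itself had 2 counts in all 6 libraries. Agtr2 (ENSMUSG00000068122), the type 2 receptor on chromosome X, had 10, 8 and 28 counts in room air and 22, 0 and 20 counts in hyperoxia. The count of 0 in hyperoxia 2 allows up to 3 counts, or 0.0741 CPM, and this floor covers counting error only. Its log2 fold change was -0.11 (95% limits -2.44 to 2.22, edgeR adjusted p = 0.961), and it was 0.47 without hyperoxia 2. In the fit adjusted for Y-linked reads it was -6.94. That fit sets hyperoxia 2 alone, the library with 0 counts, against room air, since no other hyperoxia library had Y-linked reads to speak of. With the same term Agtr1a was at 0.81. Neither receptor passed in the fit without the term, and the limits of both are wide.

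**Figure D3:**
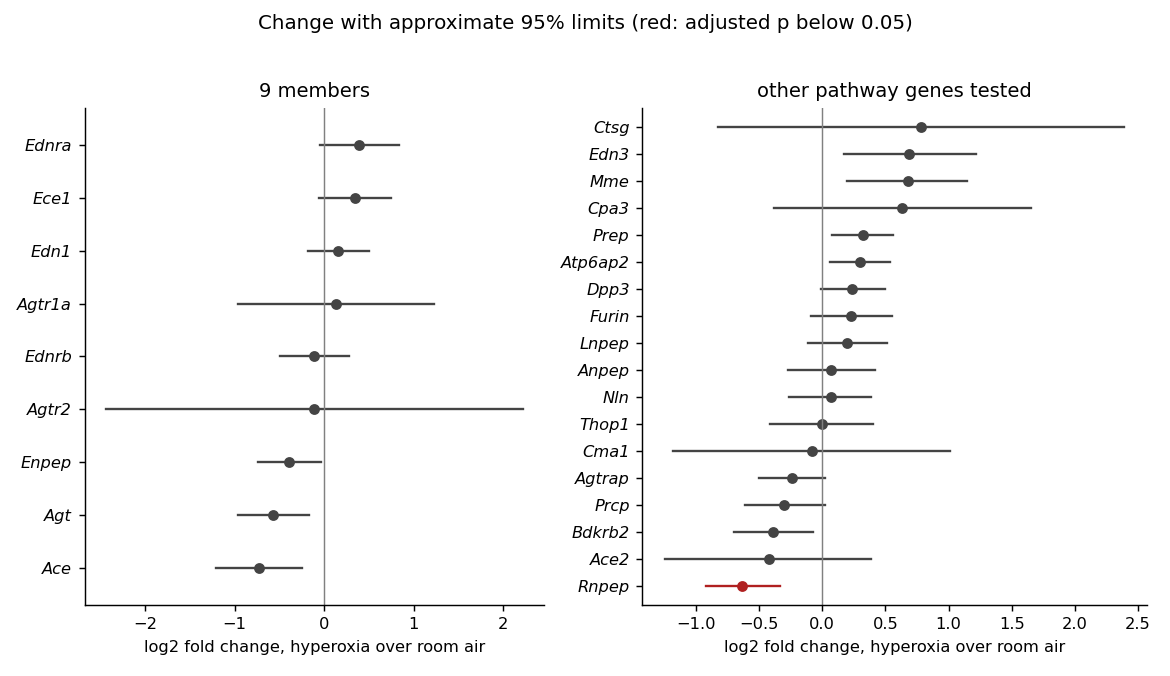
Log2 fold change, hyperoxia over room air, with approximate 95% limits from the edgeR fit. The left panel holds the 9 members and the right panel the 18 other pathway genes tested. Red marks an adjusted p below 0.05, which Rnpep alone had. Ace (-0.73), Agt (-0.57) and Enpep (-0.39) are the members whose limits stay below 0, and no member had an adjusted p below 0.05.

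The members sorted into opposite patterns across libraries within a group. Edn1, Ednrb, Ece1 and Ace were each the lowest of their group in both room air 3 and hyperoxia 2, a pattern that 20.0% of all genes tested shared. Ednra, Agtr1a and Enpep were the highest in both of these libraries, as were 19.7% of all genes. Agt and Agtr2 did neither. The first set is that of genes known in endothelium, and the second holds genes known in mural cells. The marker lists whose sums were highest of their group in the same 2 libraries were not those of mural cells alone: besides smooth muscle they were fibroblast (1092 and 1695 CPM), alveolar type 1 (2835 and 6429 CPM), alveolar type 2 (19296 and 16797 CPM), macrophage (227 and 302 CPM), mast cell and airway. The pericyte sum was highest in hyperoxia 2 (217 CPM) but not in room air 3 (186 CPM, against 189.8 CPM in room air 2). What part these had in the members' values was not tested.

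All members but Agtr2 were also read against marker genes within the same library. These ratios were chosen after the values had been seen, and 14 were computed. All were tested by the exact two-sided permutation test over 3 against 3 libraries, where the smallest p is 0.1 and its Benjamini-Hochberg adjusted value over the 14 is 0.175, so none could pass. A ratio described here as not overlapping had this smallest exact permutation p. Against the summed pan-endothelial genes, Ace was 17.3, 17.9 and 15.3% in room air and 12.8, 11.3 and 12.3% in hyperoxia (log2 difference -0.47). The groups did not overlap, which held in the lower direction for 4.54% of all genes. Ece1 against the same sum was 6.61, 6.68 and 6.01% in room air and 9.63, 10.1 and 9.75% in hyperoxia (log2 difference 0.61). Edn1 was 0.355, 0.505 and 0.453% in room air and 0.558, 0.631 and 0.568% in hyperoxia (log2 difference 0.43). For Ece1 and Edn1 the groups did not overlap either, with hyperoxia higher, as they were for 20.3% of all genes. The genes of the sum had a median log2 fold change of -0.25, and a lower sum raises every ratio to it. On their own, Ece1 (log2 fold change 0.34) and Edn1 (0.16) overlapped between the groups. Ednrb (log2 difference 0.13, exact permutation p = 0.4), Ednra, Agt, Agtr1a and Enpep overlapped between the groups on this scale.

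Since the lung's capillary types keep separate gene programs, Ace was read against general capillary markers and Ednrb against aerocyte markers. Ace was 46.5, 48.6 and 41.5% of the general capillary sum in room air and 35.5, 34.1 and 34.0% in hyperoxia (log2 difference -0.40), with no overlap and hyperoxia lower, as for 3.35% of all genes. In the general capillary list 0 of 8 genes were higher and 4 were lower. Cd93 (log2 fold change -0.22) and Plvap (0.15), its most abundant genes, weigh most in the sum and were not called. Sema3c (-0.30) and Gpihbp1 (-0.56) were not called either. Of the genes called lower, Kit (-1.62), Glp1r (-1.56) and Aplnr (-0.90) fell more than Ace (-0.73), and Hilpda (-0.67) fell less. The ratio to this sum therefore does not show that Ace fell beyond the general capillary genes called lower. Ednrb was 10.2, 9.84 and 9.05% of the aerocyte sum in room air and 8.44, 5.93 and 7.14% in hyperoxia (log2 difference -0.45), again without overlap. That pattern was shared by 39.8% of all genes and so is near the background. The aerocyte sum was 3298 to 3851 CPM in room air against 4183 to 4726 CPM in hyperoxia, with 3 of 10 genes higher and 1 lower. The most abundant gene of that sum, Emp2, went from 933 to 1510 CPM (log2 fold change 0.70) and weighs most in it. Apln (0.60) and Cyp4b1 (0.50) were the others called higher, and Fibin (-1.29) was the gene called lower. The arterial list had 4 of 8 genes lower and the venous list 4 of 9 higher.

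The mural genes were read against pericyte markers, which summed to 152 to 217 CPM over the 6 libraries with 0 of 11 genes higher and 1 lower. Ednra was 4.84, 5.33 and 6.57% of that sum in room air and 7.37, 7.35 and 7.49% in hyperoxia (log2 difference 0.42), with no overlap and hyperoxia higher, as for 13.5% of all genes. Enpep was 26.0, 24.2 and 36.6% in room air and 24.2, 19.8 and 23.9% in hyperoxia (log2 difference -0.34), without overlap, though the nearest libraries of the groups almost touched. Hyperoxia was lower without overlap for 7.4% of all genes. Agtr1a overlapped between the groups (exact permutation p = 0.9).

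The converting enzymes Ace and Ece1 were also set against each other. Ace was 262, 269 and 254% of Ece1 in room air, in CPM with no correction for length, against 133, 112 and 127% in hyperoxia. The spread within a group was small in both, room air 3 and hyperoxia 2 included, although each enzyme on its own was low in these libraries. The ratio was 2.12-fold lower in hyperoxia (log2 difference -1.08, p = 0.1 by the exact permutation test, the smallest possible), and relative to Ece1 29.2% of all genes were likewise lower in hyperoxia without overlap.

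**Figure D4:**
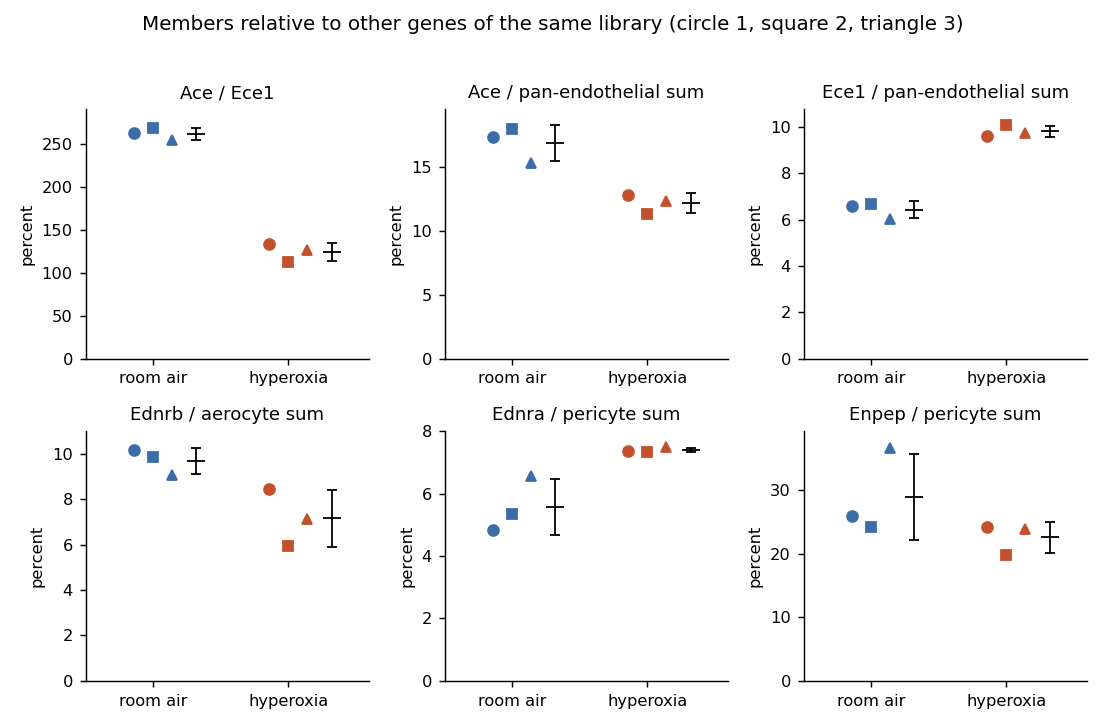
Ratios within a library, in percent on linear axes that differ between panels: Ace over Ece1, and members over the summed CPM of a marker list. Circle, square and triangle are libraries 1, 2 and 3, and the dash with its bar is the mean ± SD. Ace over Ece1 lies at 254 to 269% in room air and at 112 to 133% in hyperoxia.

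For each member the 3 genes with the most similar profile over the 6 libraries were taken, by the root mean square difference of centred log2 levels among 10882 genes with a mean of at least 5 CPM. The genes nearest to Ace were Tspan18 (0.0388), Notch4 (0.0502) and Mras (0.0526), and those nearest to Ece1 were Lrp5 (0.0451), Piezo1 (0.0673) and Ankrd50 (0.0712). Ednrb was nearest to Aar2, Slc35c1 and Vim, Edn1 to Shroom2, Ypel2 and Fam8a1, and Enpep to Ikbke, Tm7sf2 and Rpl13a. Ednra was nearest to Fam241a, Zfp984 and Ctbs, and Agt to Oaz2-ps, Ncbp2 and Reep4. For Agtr1a and Agtr2, whose few counts make a profile noisy, the nearest were Alg13, Wdyhv1 and Taf1a, and Cd180, Cdk5rap1 and Cxcr5. With 6 libraries these likenesses are descriptions only.

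The rest of both systems was listed from textbook knowledge: 30 further endothelin, angiotensin and kinin genes, of which 18 were tested. Of these 18, 0 were higher, 1 was lower and 17 did not pass, so 5.56% were called against 11.2% of all genes. At an unadjusted p below 0.05 there were 6 of the 18, against 25.2% of all genes. DESeq2's test called 3 higher and 1 lower, where it called 16.2% of all genes. Rnpep, aminopeptidase B, fell: 75.7, 61.6 and 59.3 CPM in room air against 43.1, 37.0 and 47.2 CPM in hyperoxia, with no overlap. Its mean went from 65.5 CPM ± 8.86 to 42.4 CPM ± 5.09 (log2 fold change -0.63, SE 0.13, edgeR adjusted p = 0.0126). Scaled to the pan-endothelial genes, it was no longer called (-0.38, adjusted p = 0.282).

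Edn3, the precursor of endothelin-3, was at 7.16, 10.5 and 15.3 CPM in room air against 16.8, 19.3 and 17.1 CPM in hyperoxia, with no overlap (log2 fold change 0.69, SE 0.24, edgeR adjusted p = 0.0924). Mme encodes neprilysin, which degrades endothelin and angiotensin peptides among others, and was at 18.9, 21.0 and 29.7 CPM in room air against 27.4, 47.8 and 36.2 CPM in hyperoxia. Its log2 fold change was 0.68 (SE 0.22, edgeR adjusted p = 0.0717). These values missed the threshold, Mme overlapped between the groups, and room air 3 was the highest room air library for each gene. DESeq2's test called both, as did the fit with no filter (Edn3 0.00317, Mme 0.000105). Without room air 3 both were called, Edn3 at 1.01 (adjusted p = 0.0103) and Mme at 0.89 (adjusted p = 0.0206). Both were also called without room air 3 and hyperoxia 2 (adjusted p = 0.0215 and 0.0389), where sex and oxygen are fully tied. Mme was also called without hyperoxia 1 (0.0295) and in the fit adjusted for Y-linked reads, which sets hyperoxia 2 alone against room air. Leaving out room air 1 gave Edn3 0.45 (adjusted p = 0.216), and leaving out hyperoxia 2 gave Mme 0.45 (adjusted p = 0.211). DESeq2's test also called Prep, prolyl endopeptidase (log2 fold change 0.32, edgeR adjusted p = 0.0846).

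The other abundant genes of the list did not pass. Furin, which cuts the endothelin precursor before Ece1 does, had a log2 fold change of 0.23, Atp6ap2, the prorenin receptor, of 0.30, and Dpp3, a peptidase that degrades angiotensins, of 0.24. Those of Lnpep (0.20), Anpep (0.07), Nln (0.07) and Thop1 (-0.00), peptidases that trim angiotensins, were smaller. Agtrap, which binds the type 1 receptor, had -0.24, Prcp, prolylcarboxypeptidase, -0.30 and Bdkrb2, the bradykinin B2 receptor, -0.39. Several were barely read: over all 6 libraries, Ren1, renin, had 6 counts, Mas1, the receptor of angiotensin-(1-7), had 8, Edn2 had 23 and Bdkrb1 had 57.

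Downstream of the receptors, G protein and calcium signalling genes were listed and 37 were tested: 5 were higher, 2 were lower and 30 did not pass. The share called was 18.9% against 11.2% of all genes, with a median log2 fold change of -0.03. Of the regulators of G protein signalling on the list, Rgs16, Rgs5 and Rgs4 were higher, while Rgs2 (-0.35, adjusted p = 0.0711) and Rgs3 (-0.28, adjusted p = 0.349) did not pass and had values in the other direction. Rgs16 went from 9.57 CPM ± 3.01 to 28.1 CPM ± 4.34 (log2 fold change 1.56, SE 0.22, edgeR adjusted p = 0.0018), Rgs5, a pericyte-enriched member of that family, from 68.8 CPM ± 21.7 to 149 CPM ± 14.9 (1.11, SE 0.19, adjusted p = 0.00461), and Rgs4 from 4.80 to 8.32 CPM (0.79, adjusted p = 0.0372). Rgs5 was no longer called without room air 3 and hyperoxia 2 (adjusted p = 0.107), and the call on Rgs4 was lost in 8 alternatives, though the log2 fold change was at least 0.92 for Rgs5 and 0.64 for Rgs4 in all 17. Pericyte and smooth muscle sums overlapped between groups beside these values, at 152 to 217 CPM and at 203 to 485 CPM, and their part was not tested.

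Grk5, a kinase that desensitizes G protein-coupled receptors, rose from 56.5 CPM ± 4.21 to 92.5 CPM ± 4.11 (log2 fold change 0.71, SE 0.10, edgeR adjusted p = 0.00195) and was called in all 17 alternatives. Its relative Grk2 did not pass, with groups that did not overlap (log2 fold change -0.31, edgeR adjusted p = 0.0722). Prkca, protein kinase C alpha, rose from 12.2 CPM ± 2.33 to 23.0 CPM ± 4.84 (0.91, SE 0.19, adjusted p = 0.0134). It was lost without room air 2 (adjusted p = 0.0579) or when scaled to the pan-endothelial genes (0.0598). Arrb2, beta-arrestin 2, fell from 52.9 CPM ± 1.07 to 32.7 CPM ± 1.54 (-0.70, SE 0.10, edgeR adjusted p = 0.00212), and Itpr3, an inositol trisphosphate receptor, fell from 160 CPM ± 35.0 to 109 CPM ± 5.24 (-0.56, SE 0.15, adjusted p = 0.0402). The call on Arrb2 was lost when scaled to the pan-endothelial genes (-0.46, adjusted p = 0.246), and that on Itpr3 in 8 alternatives. As background, these genes serve many receptors besides those of endothelin and angiotensin.

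**Figure D5:**
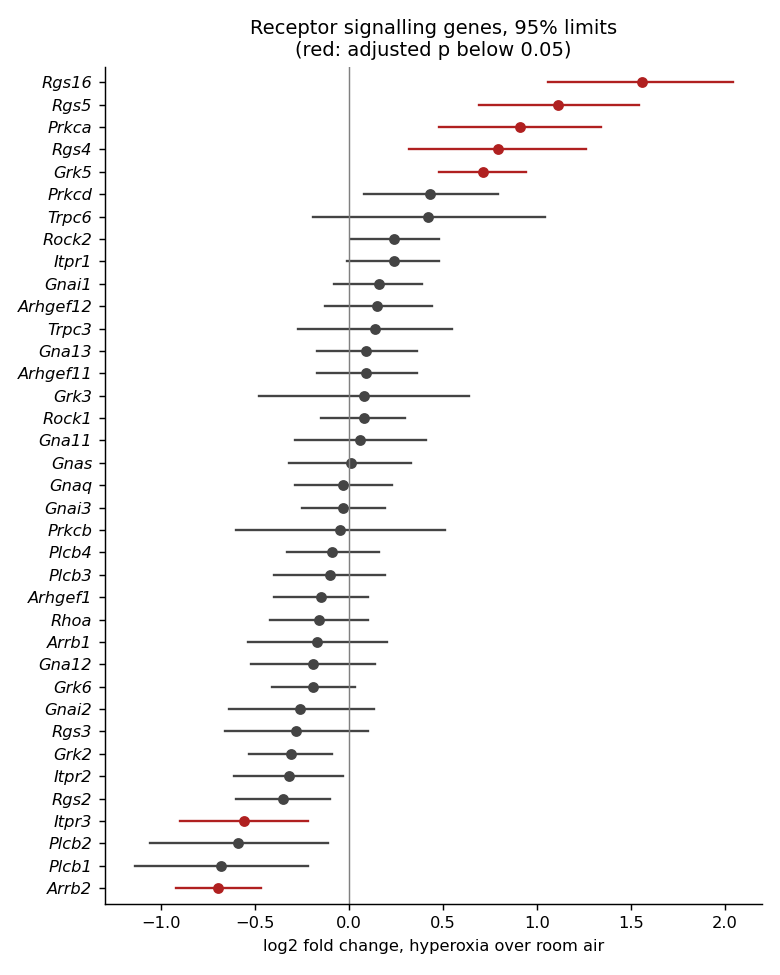
Log2 fold change, hyperoxia over room air, with approximate 95% limits from the edgeR fit, for the 37 tested receptor signalling genes; red marks the 7 genes with an adjusted p below 0.05. Rgs16 (1.56) is the highest of the red points and Arrb2 (-0.70) the lowest.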

How the data were processed

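Bulk RNA was measured in 6 libraries, grouped and numbered by the sample titles. The deposited values were raw counts per Ensembl gene ID. The build GRCm39 and the tools Subread 2.0.6, featureCounts, DESeq2 and HISAT2 2.2.1 are listed, per the submitters' processing notes, without role or order. Not given in the sources used here are the annotation release and strand setting, so reads of overlapping genes may be shared. Symbols matched 51948 of 56941 IDs. Exon lengths came from GENCODE M21 on GRCm38, and promoters from RefSeq on GRCm38.p6.

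In R 4.3.3, filterByExpr (minimum count 10, minimum total 15) left 17072 genes. TMM scaling factors were 0.975 to 1.04, and groups were compared with the robust quasi-likelihood test of edgeR 4.0.16 without covariates, with Benjamini-Hochberg adjustment over all genes and calls at 0.05. DESeq2 1.42.0 and limma 3.58.1 gave alternatives. Standard errors, and the 95% limits built on them, are approximate, being derived from each gene's F statistic. On counts simulated for 16663 genes, 57 of 97 genes simulated with a log2 shift of 1 were recovered, as were 73 of 95 with 2, and 5 of 135 calls were false. The shifted genes were a smaller share than the 11.2% called in the data, so these recovery rates need not hold there. No libraries were duplicates (chi-square per degree of freedom within groups at least 14.1).

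The members and gene lists were chosen with earlier results of these data known. Genes outside the members were named by rule: called genes and those of at least 5 CPM on the pathway lists, up to 6 called signalling genes by fold change, and the 3 nearest profiles. Itpr3, Rgs2, Rgs3, Grk2 and the genes given by counts alone were added after their values were seen. 1 gene of the pathway lists is not reported here.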

Additional observations from a re-analysis of the deposited data

How the results depend on the processing

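Of the 9 members, 0 were called higher except for 1, Ece1, when scaled to the pan-endothelial genes, which shifted the median of all genes by 0.25 and split the calls into 800 higher and 99 lower, against 1156 and 753. Called lower was 1 member with upper-quartile scaling, library size only, pan-endothelial scaling, a 1 CPM filter, limma-voom, or without room air 3 and hyperoxia 2, and 2 with no filter, DESeq2's test or Y-linked status as a term. Leaving out 1 library gave 0 to 1 lower and 0 to 0 higher. With the status term, which sets hyperoxia 2 alone against room air, Agtr2 was at -6.94. Of the other pathway genes, called higher were 2 with no filter, 3 with DESeq2's test, 1 with the status term, 2 without room air 3 and hyperoxia 2 and 0 to 3 without 1 library; called lower were 0 with pan-endothelial scaling and 1 to 2 without 1 library. Of the signalling genes, called higher were 3 with pan-endothelial scaling and 3 to 5 without 1 library; called lower were 4 with upper-quartile scaling, 0 with pan-endothelial scaling, 4 with no filter, 5 with DESeq2's test, 1 with the replicate block and 1 to 2 without 1 library. Same-numbered libraries correlated at 0.11, -0.04 and -0.09, and not every library correlated best with its own number. No pairing by number was seen, but deviations from means of 3 libraries cannot exclude it. The replicate block called 1395 genes against 1909, 0 of the members and Ace at an adjusted p of 0.11. The Ednra to Ednrb log2 difference ran from 0.21 to 0.81 without 1 library; Agtr2 to Agtr1a was not run because hyperoxia 2 had no Agtr2 count.

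Signs turned for values near 0. Ednrb was 0.13 with pan-endothelial scaling, -0.48 with the status term and -0.29 to 0.05 without 1 library, Agtr1a 0.81 with the status term, -0.20 without room air 3 and hyperoxia 2 and -0.38 to 0.43 without 1, and Agtr2 1.20 and -0.56 to 0.63. Anpep was -0.23 and Nln -0.03 with the status term, -0.06 to 0.21 and -0.07 to 0.14 without 1 library (Anpep 0.33 without room air 3 and hyperoxia 2). Thop1 was 0.26 with pan-endothelial scaling, 0.02 with limma-voom, 0.02 with the replicate block and -0.14 to 0.24 without 1 library; Agtrap was 0.02 with pan-endothelial scaling. The cause was not tested. Agtr2, with 0 to 28 counts a library, had the fewest counts of the members.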
